A study of Mus musculus with 15 samples.

Results

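The proteasome and immunoproteasome genes described here are those whose symbol is Psma, Psmb, Psmc, Psmd, Psme, Psmf or Psmg followed by digits, with each array probe named through its accession in the RefSeq gene table. The rule found 48 genes, and all 48 had a named probe among the 20145 genes named on the array. Of these, 46 were bright enough to be tested, among 13390 genes in all. Psma8, the alpha subunit of the testis, was well above background on 3 arrays of CD11c-positive NASH cells, 2 of CD11c-negative NASH cells and 3 of wildtype cells. Psmb11, the catalytic subunit of the thymic cortex, was well above background on 0 of 15 arrays, and both genes were left out of the tests. Psmc3ip and Psme3ip1 carry letters after the digits and are not members.

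RNA of liver macrophages sorted for high F4/80 was measured on 15 one-colour arrays, 5 for each of 3 groups of male mice, from pools of 7 to 9 mice. The CD11c-positive and CD11c-negative NASH groups came from MC4R-KO mice, which lack the melanocortin 4 receptor and had received Western diet for 20 weeks from 8 weeks of age, a model of non-alcoholic steatohepatitis (NASH). The wildtype group held CD11c-negative cells of wildtype mice on standard diet, and the labels used here do not state the age of those mice. Genotype, diet and disease change together between the NASH groups and the wildtype group and cannot be told apart. Between CD11c-positive NASH and wildtype cells the sorted population changes with them as well. Nothing says whether the arrays of a group came from separate pools, so that p-values measure only the spread between these arrays, which may be technical.

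The proteasome is the barrel-shaped protease that degrades proteins tagged with ubiquitin. Its core particle is built of rings of alpha and beta subunits, of which Psmb5, Psmb6 and Psmb7 cut peptide bonds, and its regulatory particle binds and unfolds the substrate and feeds it into the core. In many immune cells, and in other cells exposed to interferon-gamma, newly built cores carry Psmb8 in place of Psmb5, Psmb9 in place of Psmb6 and Psmb10 in place of Psmb7, which gives the immunoproteasome and changes the peptides available to MHC class I.

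Levels below are log2 intensities minus the 75th percentile of the array's probes, so that 0 is that percentile; changes are differences of mean levels on the log2 scale, given with their SE, and a gene passed at an adjusted p under 0.05. The 75th percentile lay between 358.6 and 562.4 intensity units. Itgax, which encodes CD11c, averaged 7.29 ± 0.028 in CD11c-positive NASH cells, 5.93 ± 0.071 in CD11c-negative NASH cells and 4.21 ± 0.031 in wildtype cells (SD, n = 5 each), an order that follows the sort within NASH. The 9 macrophage and Kupffer cell markers tested, among them Adgre1 (F4/80), were well above background on every array. The Mc4r probe was well above background on 0 of 15 arrays and so does not check the genotype. Markers of other cells were also measured and moved between the groups. The summed level of 9 conventional dendritic cell markers, in multiples of the array's 75th percentile, was 104 to 115 in CD11c-positive NASH cells, 45.3 to 51.1 in CD11c-negative NASH cells and 80.6 to 89.7 in wildtype cells, and 8 of them were higher and 0 lower in CD11c-positive than in CD11c-negative NASH cells. That of 9 neutrophil markers was 646 to 680 in CD11c-positive NASH cells, 1582 to 1733 in CD11c-negative NASH cells and 415 to 435 in wildtype cells. In each NASH group 8 of them were higher than in wildtype cells and 1, Csf3r, was lower (-0.40 in each). The sum was 118 to 122 in CD11c-positive NASH cells, 181 to 190 in CD11c-negative NASH cells and 300 to 327 in wildtype cells for sinusoidal endothelial markers, and 2211 to 2402 in CD11c-positive NASH cells, 2759 to 3021 in CD11c-negative NASH cells and 3361 to 3690 in wildtype cells for the macrophage and Kupffer cell list. Of the 9 genes of the last list, 6 were lower and 1 higher in CD11c-positive NASH than in wildtype cells. In CD11c-negative NASH cells 5 were lower and 3 higher. The changes ran from -4.38 and -2.90 for Timd4 to 0.64 and 0.90 for Lyz2, in CD11c-positive and CD11c-negative NASH cells. All 7 hepatocyte markers were lower in CD11c-positive NASH than in wildtype cells. In CD11c-negative NASH cells 5 were lower and 1, Apob, was higher (0.27). Their summed level was 25.7 to 28.3 in CD11c-positive NASH cells, 35.1 to 38.9 in CD11c-negative NASH cells and 81.9 to 90.4 in wildtype cells. It was 27.1 to 30.1 in CD11c-positive NASH cells, 42.5 to 49.7 in CD11c-negative NASH cells and 62.9 to 70.8 in wildtype cells for 7 B cell markers, 20.7 to 24.1 in CD11c-positive NASH cells, 21.0 to 26.3 in CD11c-negative NASH cells and 35.9 to 37.5 in wildtype cells for 10 T cell markers and 5.08 to 5.29 in CD11c-positive NASH cells, 3.00 to 3.24 in CD11c-negative NASH cells and 8.06 to 8.60 in wildtype cells for 8 natural killer cell markers. The 7 monocyte markers summed to 115 to 122 in CD11c-positive NASH cells, 177 to 193 in CD11c-negative NASH cells and 86.4 to 93.6 in wildtype cells, the 6 plasmacytoid dendritic cell markers to 195 to 233 in CD11c-positive NASH cells, 209 to 255 in CD11c-negative NASH cells and 229 to 246 in wildtype cells and the 5 stellate cell markers to 4.88 to 5.29 in CD11c-positive NASH cells, 7.25 to 8.03 in CD11c-negative NASH cells and 4.98 to 5.57 in wildtype cells. A sum follows its brightest genes. In CD11c-positive NASH against wildtype, 3 natural killer cell markers were higher and 3 lower. Counts were 3 and 3 for plasmacytoid dendritic cell, 2 and 3 for stellate cell and 4 and 2 for monocyte markers. For T cell markers they were 1 and 8, and for B cell markers 1 and 6. Over all genes these were 51.4% and 26.3%. Between the NASH groups 6 T cell markers were higher (29.9%) and 1 lower (23.2%) in CD11c-positive cells. Of the dendritic cell markers Xcr1 was not well above background on any CD11c-negative NASH array. The part of these cells in the results was not tested, and fewer cells of a type and less RNA per cell cannot be told apart in such samples.

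Most proteasome genes were higher in both NASH groups than in wildtype cells with 75th percentile scaling, and a smaller number (26 in CD11c-positive and 24 in CD11c-negative NASH cells) with quantile normalization. In CD11c-positive NASH cells 42 of the 46 genes were higher than in wildtype cells, 1 was lower and 3 did not pass, where 51.4% of all genes were higher, 26.3% lower and 77.6% either. In CD11c-negative NASH cells 42 were higher than in wildtype cells, 0 lower and 4 did not pass, where 48.3% of all genes were higher, 28.5% lower and 76.8% either. The median change of the 46 genes was 0.34 in CD11c-positive NASH cells, against 0.16 over all genes, and 0.41 in CD11c-negative NASH cells, against 0.13 over all genes. The arrays did not overlap for 39 of the 46 genes in CD11c-positive NASH against wildtype (69.3% of all genes), of which 38 were higher (46.4%). In CD11c-negative NASH against wildtype they did not overlap for 42 (64.1% of all genes), all of them higher (40.8%).

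Between the NASH populations the genes moved in both directions. Of the 46, 5 were higher in CD11c-positive than in CD11c-negative NASH cells, 10 lower and 31 did not pass, where 29.9% of all genes were higher, 23.2% lower and 53.1% either. The median change was 0.016, against 0.015 over all genes. The arrays did not overlap for 11 genes (39.5% of all genes), 3 of them higher (22.9%).

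**Figure D1:**
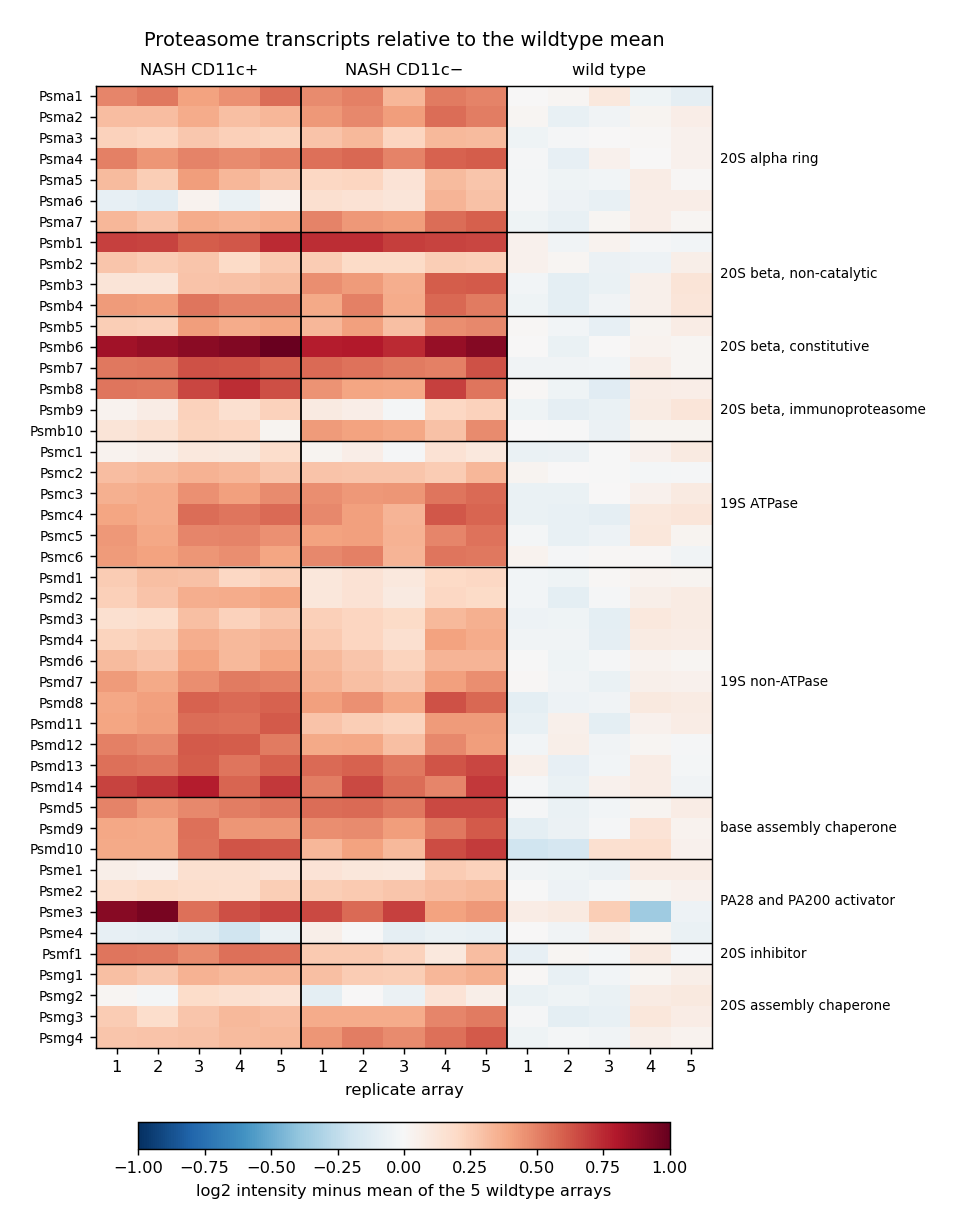
Level of each of the 46 proteasome genes (down the page, grouped by role) on each of the 15 arrays (across), as log2 intensity minus the mean of the 5 wildtype arrays. Psmb6 is higher than the wildtype mean on all 10 NASH arrays, while Psme4 lies below it on the 5 CD11c-positive NASH arrays.

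The rise against wildtype depended on the scaling of the arrays. Of the 46 genes, 30 lie in the brightest of 5 equal bins of all genes. In that bin 74.01% of all genes were higher in CD11c-positive NASH and 75.7% in CD11c-negative NASH than in wildtype cells. The proteasome genes of the bin had median changes of 0.33 in CD11c-positive and 0.42 in CD11c-negative NASH cells, against 0.32 and 0.35 over all its genes. The 11 in the next bin had median changes of 0.34 and 0.36 in the same order, against 0.24 and 0.20 over all its genes. For the 4 in the middle bin they were 0.50 and 0.49, against 0.17 and 0.092. The bin below held 1, Psme4, with -0.12 and -0.035, against 0.023 and -0.015, and the dimmest bin held 0. With quantile normalization, which gives all arrays the same distribution, 26 proteasome genes were higher and 11 lower in CD11c-positive NASH than in wildtype cells, where 40.7% and 34.1% of all genes were. In CD11c-negative NASH cells the same normalization gave 24 higher and 13 lower, against 36.1% and 37.6% of all genes. The median change of the 46 genes was then 0.089 in CD11c-positive NASH cells, against 0.045 over all genes, and 0.068 in CD11c-negative NASH cells, against 0.00092 over all genes. Of the 42 genes higher in CD11c-positive NASH cells, 26 were still higher, 8 were lower and 8 did not pass. Of the 42 higher in CD11c-negative NASH cells, 24 were still higher, 10 were lower and 8 did not pass. Which of these scalings gives the true level of the transcripts was not tested.

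**Figure D2:**
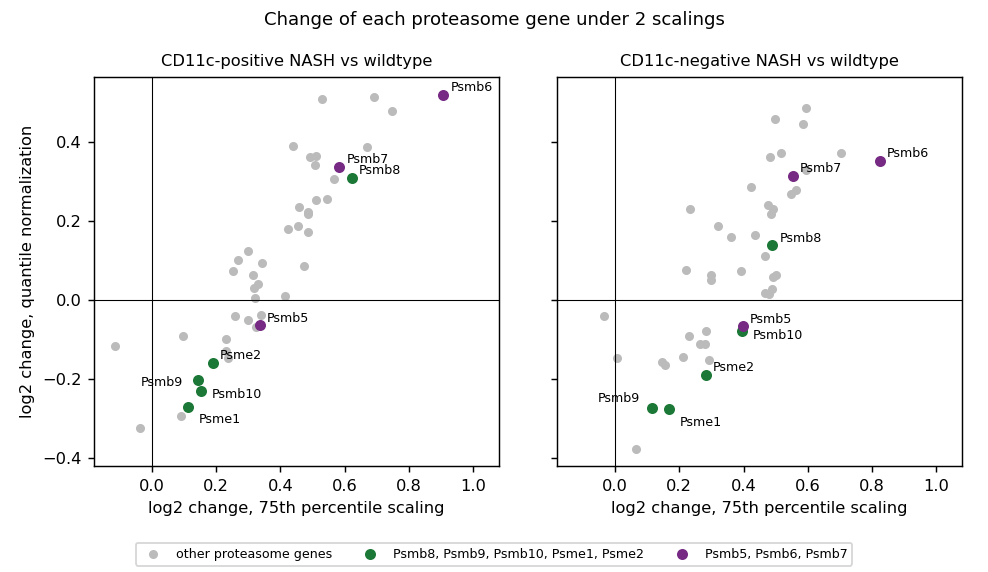
Log2 change of each of the 46 genes against wildtype with 75th percentile scaling (x axis) and with quantile normalization (y axis), in CD11c-positive NASH cells (left) and CD11c-negative NASH cells (right). Psmb6 lies farthest to the right (0.91 and 0.82), and Psmb9 lies right of 0 on the x axis but below 0 on the y axis in both panels (-0.20 and -0.27).

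The catalytic subunits distinguish the immunoproteasome from the constitutive core, so the promoters of 5 of them are shown, as RefSeq gives them on GRCm38.p6, from 250 bases before to 50 bases after the gene start. Capitals mark matches on either strand to TGACNNNGC, the core of the antioxidant response element. The core of the interferon-stimulated response element, GAAA and GAAA with any 2 bases between, was searched on both strands too.
Psmb8 promoter, chr17:34197945-34198244, plus strand: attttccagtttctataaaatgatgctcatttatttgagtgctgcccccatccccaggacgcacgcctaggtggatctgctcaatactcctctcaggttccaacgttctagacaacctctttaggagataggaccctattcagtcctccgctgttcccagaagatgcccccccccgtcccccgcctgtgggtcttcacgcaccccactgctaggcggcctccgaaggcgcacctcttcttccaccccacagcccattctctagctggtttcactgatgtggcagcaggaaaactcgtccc
Psmb9 promoter, chr17:34187281-34187580, minus strand: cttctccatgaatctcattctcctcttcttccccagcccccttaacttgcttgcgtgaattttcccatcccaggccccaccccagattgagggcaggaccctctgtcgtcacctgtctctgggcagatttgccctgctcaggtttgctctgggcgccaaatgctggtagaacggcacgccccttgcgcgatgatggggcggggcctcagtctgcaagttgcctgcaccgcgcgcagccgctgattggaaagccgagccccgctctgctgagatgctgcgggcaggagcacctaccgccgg
Psmb10 promoter, chr8:105938343-105938642, minus strand: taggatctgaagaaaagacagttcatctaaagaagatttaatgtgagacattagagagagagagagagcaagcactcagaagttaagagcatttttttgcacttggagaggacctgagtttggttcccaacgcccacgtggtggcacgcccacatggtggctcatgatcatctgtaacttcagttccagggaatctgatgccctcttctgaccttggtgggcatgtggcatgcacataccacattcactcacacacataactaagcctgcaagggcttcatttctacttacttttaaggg
Psmb5 promoter, chr14:54617946-54618245, minus strand: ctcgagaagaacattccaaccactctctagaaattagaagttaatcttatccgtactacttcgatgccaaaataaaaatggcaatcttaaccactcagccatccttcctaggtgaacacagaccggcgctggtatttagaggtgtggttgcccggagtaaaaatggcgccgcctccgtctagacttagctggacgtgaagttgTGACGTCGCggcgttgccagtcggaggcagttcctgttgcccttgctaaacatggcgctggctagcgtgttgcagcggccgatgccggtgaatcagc
Psmb6 promoter, chr11:70525107-70525406, plus strand: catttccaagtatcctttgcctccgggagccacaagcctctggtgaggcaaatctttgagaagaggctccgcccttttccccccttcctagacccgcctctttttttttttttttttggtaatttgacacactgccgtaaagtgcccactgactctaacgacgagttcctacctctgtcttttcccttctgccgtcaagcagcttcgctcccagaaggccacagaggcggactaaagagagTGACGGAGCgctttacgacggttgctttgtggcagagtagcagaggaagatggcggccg
Psmb7 is named only. The antioxidant letters stand in the Psmb5 and Psmb6 windows and in none of the 3 immunosubunit windows. Over 43 promoters of 40 proteasome genes, the antioxidant letters were found for 6 genes (12.4% of all 32851 promoters hold them) and the interferon-stimulated letters for 5 (3.44%). The last were Psmb3, Psmd4, Psmd9, Psme1 and Psmg4. In the gene table Psmb9, Tap1, Psmb8 and Tap2 follow each other on chromosome 17, where Tap1 and Tap2 encode the peptide transporter of MHC class I.

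Of the immunoproteasome subunits, Psmb8 rose in both NASH groups with either scaling. With 75th percentile scaling Psmb10 was highest in CD11c-negative NASH cells and Psmb9 changed least, but with quantile normalization neither was higher than in wildtype cells and Psmb9 was lower in both NASH groups. Psmb8, the chymotrypsin-like immunosubunit, had levels of 5.55, 5.54, 5.68, 5.75 and 5.66 on the CD11c-positive NASH arrays, 5.47, 5.41, 5.4, 5.7 and 5.55 on the CD11c-negative NASH arrays, and 5.03, 4.98, 4.9, 5.09 and 5.08 on the wildtype arrays. Every NASH array lay above every wildtype array, and the NASH groups overlapped each other. Psmb8 was 1.54-fold higher in CD11c-positive NASH than in wildtype cells (0.62 ± 0.061, adjusted p = 2.59e-07) and 1.4-fold higher in CD11c-negative NASH than in wildtype cells (0.49 ± 0.061, adjusted p = 3.72e-06). With quantile normalization these changes were 0.31 and 0.14 and still passed. The NASH groups differed by 0.13 ± 0.061 (CD11c-positive minus CD11c-negative, adjusted p = 0.0840), which did not pass, and by 0.12 and 0.075 within slide 1 and slide 2. The difference passed with the slide as a block (0.10, adjusted p = 0.0183), with quantile normalization (0.17), with normexp background correction (0.17) and without CD11c-negative NASH replicate 4 (0.18).

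Psmb9, the immunosubunit that takes the caspase-like position, had levels of 5.48, 5.51, 5.67, 5.6 and 5.67 on the CD11c-positive NASH arrays, 5.53, 5.51, 5.42, 5.65 and 5.67 on the CD11c-negative NASH arrays, and 5.4, 5.35, 5.38, 5.52 and 5.56 on the wildtype arrays. All 3 groups overlapped, and in the CD11c-negative NASH and wildtype groups replicates 4 and 5, which share slide 2, were the highest. Psmb9 was higher in CD11c-positive NASH than in wildtype cells (0.14 ± 0.058, adjusted p = 0.0353) and did not pass in CD11c-negative NASH against wildtype (0.12 ± 0.058, adjusted p = 0.0845). The call in CD11c-positive NASH cells was lost in 6 of the 15 fits that left out 1 array (CD11c-positive NASH replicate 3, 4 or 5, or wildtype replicate 1, 2 or 3), with changes from 0.12 to 0.14 and adjusted p from 0.0620 to 0.0877, and with median scaling (0.012). With no filter on probes that call was lost too, at the same change of 0.14 (adjusted p = 0.0618). The call in CD11c-negative NASH cells was gained without CD11c-negative NASH replicate 3 or wildtype replicate 5 (0.15 in each). With the slide as a block the change in CD11c-negative NASH cells was 0.12 and passed (adjusted p = 0.000470), with 0.11 and 0.12 within slide 1 and slide 2. With quantile normalization both changes had the opposite sign, -0.20 in CD11c-positive and -0.27 in CD11c-negative NASH cells.

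Psmb10, the trypsin-like immunosubunit, had levels of 6.88, 6.91, 6.98, 6.97 and 6.78 on the CD11c-positive NASH arrays, 7.18, 7.15, 7.13, 7.04 and 7.22 on the CD11c-negative NASH arrays, and 6.75, 6.75, 6.7, 6.78 and 6.78 on the wildtype arrays. The CD11c-negative NASH arrays lay above all others, and the CD11c-positive NASH arrays overlapped the wildtype arrays. Psmb10 was lower in CD11c-positive than in CD11c-negative NASH cells (-0.24 ± 0.041, adjusted p = 0.000173), with -0.26 within slide 1 and -0.22 within slide 2, where it did not pass (adjusted p = 0.0689). It was higher in CD11c-positive NASH (0.15 ± 0.041, adjusted p = 0.00358) and in CD11c-negative NASH (0.39 ± 0.041, adjusted p = 5.22e-07) than in wildtype cells. Within slide 2 the change in CD11c-positive NASH cells against wildtype was 0.13 (adjusted p = 0.20), and with median scaling 0.019, and neither passed. With quantile normalization Psmb10 was lower in CD11c-positive NASH than in wildtype cells (-0.23) and did not pass in CD11c-negative NASH cells (-0.080).

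All 3 constitutive catalytic subunits rose in both NASH groups with 75th percentile scaling, and Psmb6 and Psmb7 also with quantile normalization. Psmb6 showed the largest rise of the 46 genes against wildtype in each NASH group with 75th percentile scaling, while with quantile normalization it did so in CD11c-positive NASH cells and Psmd5 (0.49) in CD11c-negative NASH cells. Psmb6, the caspase-like subunit, had levels of 6.88, 6.9, 6.94, 6.96 and 7.02 on the CD11c-positive NASH arrays, 6.82, 6.83, 6.78, 6.91 and 6.95 on the CD11c-negative NASH arrays, and 6.04, 5.97, 6.04, 6.07 and 6.05 on the wildtype arrays. A wide gap separated both NASH groups from wildtype, and the NASH groups overlapped. Psmb6 was 1.87-fold higher in CD11c-positive NASH than in wildtype cells (0.91 ± 0.037, adjusted p = 1.22e-11) and 1.77-fold higher in CD11c-negative NASH than in wildtype cells (0.82 ± 0.037, adjusted p = 4.68e-11). Quantile normalization gave 0.52 and 0.35, which both passed. The NASH populations differed by 0.083 ± 0.037 (adjusted p = 0.0747), which did not pass. The difference passed with quantile normalization (0.17), with normexp background correction (0.14), with the slide as a block (0.066, adjusted p = 0.0256) and without CD11c-positive NASH replicate 1 or CD11c-negative NASH replicate 5 (0.099 and 0.11).

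Psmb7, the trypsin-like subunit, had levels of 3.37, 3.38, 3.48, 3.48 and 3.43 on the CD11c-positive NASH arrays, 3.41, 3.39, 3.37, 3.34 and 3.48 on the CD11c-negative NASH arrays, and 2.81, 2.81, 2.82, 2.92 and 2.86 on the wildtype arrays. No NASH array reached the wildtype range, and the NASH groups overlapped. Psmb7 was 1.5-fold higher in CD11c-positive NASH (0.58 ± 0.034, adjusted p = 7.96e-10) and 1.47-fold higher in CD11c-negative NASH (0.55 ± 0.034, adjusted p = 1.72e-09) than in wildtype cells, and changed by 0.34 and 0.31 with quantile normalization. The difference between the NASH groups did not pass (0.029 ± 0.034, adjusted p = 0.498).

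Psmb5, the chymotrypsin-like subunit, had levels of 6.55, 6.54, 6.72, 6.68 and 6.7 on the CD11c-positive NASH arrays, 6.63, 6.72, 6.6, 6.77 and 6.79 on the CD11c-negative NASH arrays, and 6.32, 6.28, 6.22, 6.33 and 6.38 on the wildtype arrays. Here too every NASH array lay above the wildtype arrays. Psmb5 was higher in CD11c-positive NASH (0.34 ± 0.048, adjusted p = 1.43e-05) and in CD11c-negative NASH (0.40 ± 0.048, adjusted p = 2.6e-06) than in wildtype cells, with 0.36 and 0.39 at its second probe. Quantile normalization turned the sign, to -0.064 and -0.067, which did not pass. The difference between the NASH groups did not pass (-0.062 ± 0.048, adjusted p = 0.291) but was -0.087 with the slide as a block, and then passed (adjusted p = 0.0107), as it did with median scaling (-0.12).

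**Figure D3:**
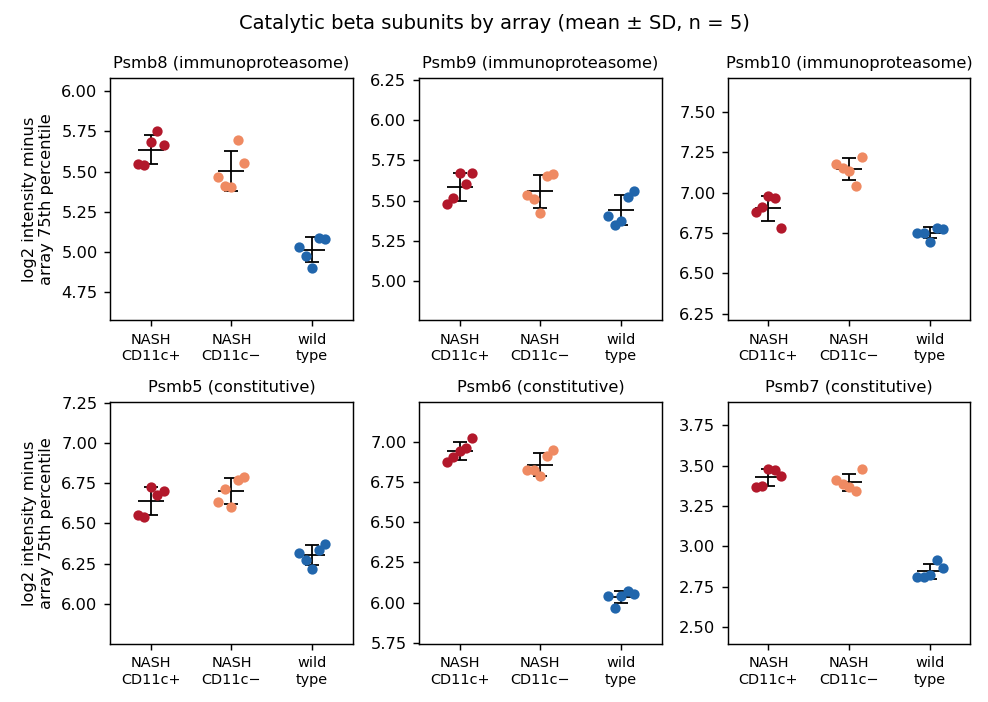
Level (log2 intensity minus the array's 75th percentile, y axis) of the immunoproteasome subunits and of their constitutive counterparts, 1 gene a panel, on the 5 arrays of each group, with mean ± SD. The NASH arrays of Psmb6 stand clear of wildtype, by 0.91 in CD11c-positive and 0.82 in CD11c-negative NASH cells, while the groups of Psmb9 overlap.

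Set against their counterparts, the immunosubunits moved in different directions. The log2 ratio of each immunosubunit to its counterpart was taken within each array and is given relative to the wildtype mean. A constant shift of an array cancels in it. Scaling that depends on intensity, such as quantile normalization, does not cancel. Groups were compared by a 2-sided exact permutation test of 5 against 5 arrays, whose smallest possible p is 0.00794, with p-values adjusted over 9 tests.

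The Psmb9 to Psmb6 ratio was lower in both NASH groups. It was -0.80, -0.80, -0.68, -0.77 and -0.76 on the CD11c-positive NASH arrays, -0.69, -0.72, -0.77, -0.66 and -0.69 on the CD11c-negative NASH arrays, and -0.047, -0.026, -0.072, 0.043 and 0.10 on the wildtype arrays. All NASH arrays lay far below all wildtype arrays, and the NASH groups overlapped. The change was -0.76 ± 0.039 in CD11c-positive NASH and -0.71 ± 0.037 in CD11c-negative NASH cells relative to wildtype cells (exact permutation, adjusted p = 0.0102 and 0.0102), a ratio 1.7-fold and 1.63-fold lower. Within slide 1 and slide 2 it was -0.75 and -0.81 in CD11c-positive and -0.68 and -0.75 in CD11c-negative NASH cells. CD11c-positive and CD11c-negative NASH cells differed by -0.054 ± 0.029 (exact permutation, adjusted p = 0.119). This difference passed with the slide as a block (-0.066, adjusted p = 0.0338) and with quantile normalization (-0.097, adjusted p = 0.0238), both by exact permutation.

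The Psmb10 to Psmb7 ratio was lower too, and lowest in CD11c-positive cells. It was -0.40, -0.37, -0.41, -0.42 and -0.56 on the CD11c-positive NASH arrays, -0.14, -0.14, -0.14, -0.21 and -0.17 on the CD11c-negative NASH arrays, and 0.037, 0.031, -0.031, -0.044 and 0.0065 on the wildtype arrays. The 3 groups did not overlap. Relative to wildtype the change was -0.43 ± 0.037 in CD11c-positive and -0.16 ± 0.021 in CD11c-negative NASH cells, and CD11c-positive differed from CD11c-negative NASH cells by -0.27 ± 0.036 (exact permutation, adjusted p = 0.0102 for each). Within slide 1 and slide 2 the last difference was -0.25 and -0.27. The size of these differences depended on the scaling. Against wildtype, quantile normalization moved Psmb10 by -0.23 and Psmb7 by 0.34 in CD11c-positive NASH cells. In CD11c-negative NASH cells it moved Psmb10 by -0.080 and Psmb7 by 0.31.

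The Psmb8 to Psmb5 ratio was higher in CD11c-positive NASH cells. It was 0.28, 0.28, 0.25, 0.36 and 0.25 on the CD11c-positive NASH arrays, 0.12, -0.020, 0.086, 0.22 and 0.052 on the CD11c-negative NASH arrays, and -0.00080, -0.011, -0.027, 0.042 and -0.0039 on the wildtype arrays. Every CD11c-positive NASH array lay above both other groups, which overlapped each other. The change was 0.29 ± 0.024 relative to wildtype cells and 0.19 ± 0.044 relative to CD11c-negative NASH cells (exact permutation, adjusted p = 0.0102 for both). CD11c-negative NASH cells differed from wildtype cells by 0.092 ± 0.041 (exact permutation, adjusted p = 0.0625), a difference that passed with quantile normalization (0.20) and without CD11c-negative NASH replicate 2 (0.12). None of the 9 ratio differences changed sign under any alternative that was run.

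**Figure D4:**
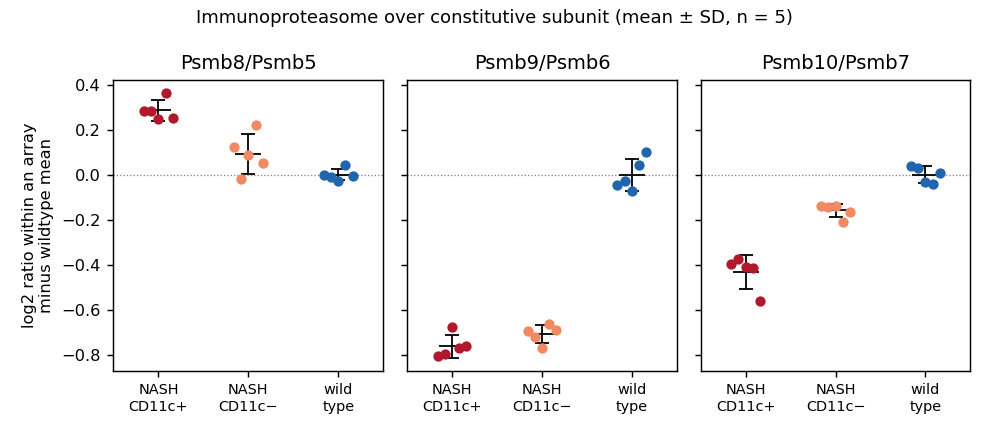
Log2 ratio of each immunoproteasome subunit to its constitutive counterpart within each array, minus the mean of the 5 wildtype arrays (y axis), for the 5 arrays of each group. In CD11c-positive NASH cells Psmb8/Psmb5 lies above wildtype (0.29), while Psmb9/Psmb6 (-0.76) and Psmb10/Psmb7 (-0.43) lie below it.

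The activators, which cap the core in place of the regulatory particle, did not change alike. Psme1 and Psme2 encode the subunits of the interferon-inducible activator PA28 and are neighbours on chromosome 14, with Emc9 between them. Psme1 ranged from 5.99 to 6.12 in CD11c-positive NASH cells, from 6.06 to 6.21 in CD11c-negative NASH cells and from 5.89 to 6.03 in wildtype cells. It was higher in CD11c-positive NASH (0.11 ± 0.042, adjusted p = 0.0254) and in CD11c-negative NASH (0.17 ± 0.042, adjusted p = 0.00223) than in wildtype cells. The call in CD11c-positive NASH cells was lost in 6 of the 15 fits that left out 1 array (CD11c-positive NASH replicate 3, 4 or 5, or wildtype replicate 1, 2 or 3), with changes from 0.097 to 0.11 and adjusted p from 0.0516 to 0.0646, and median scaling gave -0.021.

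Psme2 ranged from 7.36 to 7.43 in CD11c-positive NASH cells, from 7.44 to 7.51 in CD11c-negative NASH cells and from 7.14 to 7.23 in wildtype cells. No groups overlapped, and CD11c-negative NASH cells had the highest levels. Psme2 was higher in CD11c-positive NASH (0.19 ± 0.026, adjusted p = 8.88e-06) and in CD11c-negative NASH (0.28 ± 0.026, adjusted p = 1.31e-07) than in wildtype cells, and lower in CD11c-positive than in CD11c-negative NASH cells (-0.093 ± 0.026, adjusted p = 0.00748). That last difference was 0.031 with quantile normalization and 0.018 with normexp background correction, -0.059 with the mean of the kept probes and -0.079 on slide 1 alone, and passed with none of these. Against wildtype, quantile normalization turned both PA28 genes round, to -0.27 and -0.28 for Psme1 and -0.16 and -0.19 for Psme2, each in CD11c-positive and CD11c-negative NASH cells.

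Psme3, the nuclear activator PA28-gamma, had levels of 4.56, 4.59, 4.2, 4.29 and 4.32 on the CD11c-positive NASH arrays, 4.31, 4.21, 4.33, 4.05 and 4.08 on the CD11c-negative NASH arrays, and 3.72, 3.74, 3.89, 3.29 and 3.59 on the wildtype arrays. All NASH arrays lay above the wildtype arrays, whose SD of 0.22 compares with a median of 0.061 over the 46 genes. Psme3 was higher in CD11c-positive NASH (0.75 ± 0.11, adjusted p = 1.5e-05) and in CD11c-negative NASH (0.55 ± 0.11, adjusted p = 0.000294) than in wildtype cells. With quantile normalization the second change was 0.27 and did not pass (adjusted p = 0.0656). The difference between the NASH groups did not pass (0.20 ± 0.11, adjusted p = 0.135) but did with the slide as a block (0.26, adjusted p = 0.00118) and with normexp background correction (0.27).

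Psme4, the nuclear activator PA200, was the gene of the 46 that was lower in CD11c-positive NASH than in wildtype cells with 75th percentile scaling. Its levels were -0.013, -0.016, -0.058, -0.13 and 0.0059 on the CD11c-positive NASH arrays, 0.13, 0.065, -0.013, 0.0045 and -0.00013 on the CD11c-negative NASH arrays, and 0.079, 0.041, 0.13, 0.10 and 0.010 on the wildtype arrays. The CD11c-positive NASH arrays all lay under the wildtype arrays, the nearest of them closely, and the CD11c-negative NASH arrays overlapped the wildtype arrays. The change was -0.12 ± 0.036 in CD11c-positive NASH (adjusted p = 0.00985) and -0.035 ± 0.036 in CD11c-negative NASH cells (adjusted p = 0.387) relative to wildtype. Within slide 1 and slide 2 alone, the change in CD11c-positive NASH cells was -0.099 and -0.12 and did not pass (adjusted p = 0.111 and 0.0803). A second Psme4 probe gave -0.47 and -0.39 for CD11c-positive and CD11c-negative NASH cells against wildtype, and with the mean of both probes the change in CD11c-negative NASH cells passed (-0.21), as it did with median scaling (-0.11).

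Psmf1, the proteasome inhibitor PI31, separated all 3 groups and was highest in CD11c-positive NASH cells. Its levels were 0.58, 0.57, 0.51, 0.59 and 0.58 on the CD11c-positive NASH arrays, 0.30, 0.30, 0.27, 0.14 and 0.35 on the CD11c-negative NASH arrays, and -0.043, 0.061, 0.019, 0.13 and 0.026 on the wildtype arrays. No group reached another's range, though the lowest CD11c-negative NASH array lay just above the highest wildtype array. Psmf1 was higher in CD11c-positive NASH (0.53 ± 0.039, adjusted p = 1.18e-08) and in CD11c-negative NASH (0.23 ± 0.039, adjusted p = 7.69e-05) than in wildtype cells, the second of which did not pass on slide 2 alone (0.17, adjusted p = 0.0969). It was also higher in CD11c-positive than in CD11c-negative NASH cells (0.29 ± 0.039, adjusted p = 2.09e-05), with 0.28 and 0.32 within slide 1 and slide 2, the largest such rise of the 46 genes with 75th percentile scaling.

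The alpha ring forms the outer rings of the core and gates entry to it. In CD11c-positive NASH cells 6 of its 7 tested genes were higher than in wildtype cells (51.4% of all genes), with a median change of 0.32. Psma1 (0.49 ± 0.045, adjusted p = 1.24e-07) and Psma4 (0.48 ± 0.029, adjusted p = 1.07e-09) led. In CD11c-negative NASH cells 7 were higher than in wildtype cells (48.3% of all genes), with a median of 0.47. Psma4 (0.56 ± 0.029, adjusted p = 2.32e-10) and Psma7 (0.50 ± 0.039, adjusted p = 2.04e-08) led there. In CD11c-positive NASH against wildtype Psma7 changed by 0.34 ± 0.039, adjusted p = 1.28e-06, and by -0.038 with quantile normalization, which did not pass. That normalization left 2 alpha ring genes higher (40.7% of all genes) and 3 lower (34.1%) in CD11c-positive NASH than in wildtype cells. In CD11c-negative NASH cells it left 2 higher (36.1%) and 3 lower (37.6%).

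Within NASH, 4 alpha ring genes were lower in CD11c-positive than in CD11c-negative cells (23.2% of all genes) and 0 higher (29.9%). Psma6 differed most. Its levels ranged from 4.93 to 5.08 in CD11c-positive NASH cells, from 5.16 to 5.38 in CD11c-negative NASH cells and from 4.96 to 5.11 in wildtype cells. The CD11c-negative NASH arrays stood above both other groups, which overlapped. Psma6 was lower in CD11c-positive than in CD11c-negative NASH cells (-0.25 ± 0.050, adjusted p = 0.000752). It was higher in CD11c-negative NASH than in wildtype cells (0.21 ± 0.050, adjusted p = 0.00139), a change of -0.14 with quantile normalization. The difference between CD11c-positive NASH and wildtype cells did not pass (-0.037 ± 0.050, adjusted p = 0.510) but passed as lower with the slide as a block (-0.062, adjusted p = 0.0355), with quantile normalization (-0.32) and with median scaling (-0.17). Psma7 was also lower in CD11c-positive than in CD11c-negative NASH cells (-0.16 ± 0.039, adjusted p = 0.00315), a difference of -0.098 with normexp background correction, which did not pass (adjusted p = 0.0542).

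The non-catalytic beta subunits complete the inner rings, and all 4 were higher than wildtype in both NASH groups. Over all genes 51.4% were higher in CD11c-positive and 48.3% in CD11c-negative NASH cells. With quantile normalization 3 were higher (40.7% of all genes) and 1 lower (34.1%) in CD11c-positive NASH than in wildtype cells. In CD11c-negative NASH cells 2 were then higher (36.1%) and 0 lower (37.6%). Psmb1 ranged from 4.89 to 5.03 in CD11c-positive NASH cells, from 4.95 to 5.02 in CD11c-negative NASH cells and from 4.25 to 4.33 in wildtype cells. Its NASH arrays stood well clear of wildtype, with changes of 0.67 ± 0.030 in CD11c-positive (adjusted p = 3.99e-11) and 0.70 ± 0.030 in CD11c-negative NASH cells (adjusted p = 2.81e-11). Quantile normalization gave 0.39 and 0.37. Psmb4 was higher in CD11c-positive NASH than in wildtype cells (0.47 ± 0.049, adjusted p = 4.9e-07).

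Psmb3 ranged from 5.73 to 5.92 in CD11c-positive NASH cells, from 5.96 to 6.21 in CD11c-negative NASH cells and from 5.51 to 5.73 in wildtype cells. CD11c-negative NASH cells had the highest levels, without overlap with CD11c-positive NASH cells. Psmb3 was lower in CD11c-positive than in CD11c-negative NASH cells (-0.26 ± 0.061, adjusted p = 0.00233), the largest fall of the 46 genes in that comparison with 75th percentile scaling. With quantile normalization Psmg4 fell more (-0.25 against -0.19). Psmb3 was higher in CD11c-positive NASH (0.23 ± 0.061, adjusted p = 0.00299) and in CD11c-negative NASH (0.49 ± 0.061, adjusted p = 3.44e-06) than in wildtype cells, and with quantile normalization the first was -0.13, a fall that passed, and the second 0.059, which did not pass (adjusted p = 0.232).

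Psmc1 to Psmc6 form the ring of ATPases that unfolds the substrate. In each NASH group 5 of 6 were higher than in wildtype cells, with median changes of 0.42 in CD11c-positive and 0.46 in CD11c-negative NASH cells. Over all genes 51.4% and 48.3% were higher, in the same order. The largest changes were those of Psmc4 (0.49 ± 0.065, adjusted p = 7.16e-06) and Psmc5 (0.45 ± 0.043, adjusted p = 1.8e-07) in CD11c-positive NASH cells, and of Psmc3 (0.49 ± 0.039, adjusted p = 3.04e-08) and Psmc4 (0.49 ± 0.065, adjusted p = 7.54e-06) in CD11c-negative NASH cells. With quantile normalization 3 were higher (40.7% of all genes) and 1 lower (34.1%) in CD11c-positive NASH than in wildtype cells. In CD11c-negative NASH cells 3 were then higher (36.1%) and 2 lower (37.6%), and Psmc3 did not pass (0.027, adjusted p = 0.326). Psmc1 did not pass in CD11c-positive NASH (0.091 ± 0.041, adjusted p = 0.0541) or in CD11c-negative NASH cells (0.067 ± 0.041, adjusted p = 0.149). It was lower than wildtype with quantile normalization (-0.29 in CD11c-positive and -0.38 in CD11c-negative NASH cells), and higher with the slide as a block (0.071 and 0.067). In CD11c-positive NASH cells it also passed as higher with normexp background correction (0.13) and without CD11c-positive NASH replicate 1, CD11c-negative NASH replicate 3 or 4, or wildtype replicate 5 (0.091 to 0.11). Between the NASH groups 0 ATPase genes were higher (29.9% of all genes) and 0 lower (23.2%), with changes from -0.074 to 0.035. With the slide as a block Psmc3 passed as lower (-0.094, adjusted p = 0.000970), and with quantile normalization Psmc1 (0.083) and Psmc2 (0.084) passed as higher.

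The other subunits of the regulatory particle, named Psmd, include the ubiquitin receptor Psmd4 and the deubiquitinase Psmd14, which removes the ubiquitin chain as the substrate enters. All 11 were higher than wildtype in both NASH groups, with medians of 0.46 in CD11c-positive and 0.32 in CD11c-negative NASH cells. Over all genes 51.4% and 48.3% were higher, in the same order. With quantile normalization 7 were higher (40.7% of all genes) and 1 lower (34.1%) in CD11c-positive NASH than in wildtype cells. In CD11c-negative NASH cells 7 were then higher (36.1%) and 4 lower (37.6%). Psmd14 had levels of 2.48, 2.52, 2.59, 2.38 and 2.51 on the CD11c-positive NASH arrays, 2.31, 2.46, 2.36, 2.29 and 2.51 on the CD11c-negative NASH arrays, and 1.79, 1.74, 1.85, 1.88 and 1.77 on the wildtype arrays. Every NASH array lay above the wildtype arrays. Psmd14 was higher in CD11c-positive NASH (0.69 ± 0.048, adjusted p = 5.54e-09) and in CD11c-negative NASH (0.58 ± 0.048, adjusted p = 4.32e-08) than in wildtype cells, as was Psmd13 (0.56 ± 0.035, adjusted p = 1.46e-09 and 0.59 ± 0.035, adjusted p = 9.66e-10, in the same order).

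Within NASH, 4 of these 11 genes were higher in CD11c-positive cells (29.9% of all genes) and 0 lower (23.2%). The largest rises were those of Psmd11 (0.19 ± 0.056, adjusted p = 0.0113) and Psmd2 (0.18 ± 0.041, adjusted p = 0.00189), a large scaffold subunit of the base. Psmd12 passed with its brighter probe (0.15 ± 0.037, adjusted p = 0.00308), while its second probe gave -0.0025 and the mean of both 0.075, which did not pass (adjusted p = 0.0915). In CD11c-negative NASH cells the change of Psmd2 against wildtype was 0.15 ± 0.041 (adjusted p = 0.00463), and -0.16 with quantile normalization.

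Chaperones that build the particle were mostly higher in NASH. All 3 chaperones of the base were higher than wildtype in both NASH groups, where 51.4% (CD11c-positive) and 48.3% (CD11c-negative) of all genes were. Psmd10 (gankyrin) and Psmd5 led in CD11c-positive NASH cells (0.51 ± 0.097, adjusted p = 0.000224 and 0.49 ± 0.035, adjusted p = 6.5e-09), and Psmd5 and Psmd9 in CD11c-negative NASH cells (0.59 ± 0.035, adjusted p = 8.82e-10 and 0.50 ± 0.050, adjusted p = 3.47e-07). Psmd5 was lower in CD11c-positive than in CD11c-negative NASH cells (-0.10 ± 0.035, adjusted p = 0.0227), a call lost with normexp background correction (-0.058), on slide 1 alone (-0.087) and without CD11c-positive NASH replicate 2 or CD11c-negative NASH replicate 4 or 5 (-0.088 to -0.086). Of the 4 chaperones of the core, Psmg1 to Psmg4, 3 were higher than wildtype in each NASH group. Psmg2 did not pass in CD11c-positive NASH (0.097 ± 0.055, adjusted p = 0.124) or in CD11c-negative NASH cells (0.0071 ± 0.055, adjusted p = 0.911). It passed as higher in CD11c-positive NASH cells with the slide as a block (0.066) and as lower in CD11c-negative NASH cells with quantile normalization (-0.15).

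Psmg4, which helps to assemble the alpha ring, had levels of 2.14, 2.15, 2.16, 2.18 and 2.19 on the CD11c-positive NASH arrays, 2.31, 2.37, 2.34, 2.41 and 2.48 on the CD11c-negative NASH arrays, and 1.82, 1.85, 1.83, 1.92 and 1.9 on the wildtype arrays. The 3 groups did not overlap, and CD11c-positive NASH cells lay between the others. Psmg4 was higher in CD11c-positive NASH (0.30 ± 0.033, adjusted p = 9.65e-07) and in CD11c-negative NASH (0.52 ± 0.033, adjusted p = 2.39e-09) than in wildtype cells, and lower in CD11c-positive than in CD11c-negative NASH cells (-0.22 ± 0.033, adjusted p = 6.82e-05). Psmg3 was likewise lower in CD11c-positive than in CD11c-negative NASH cells (-0.16 ± 0.048, adjusted p = 0.0128, and -0.10 with normexp background correction, which did not pass) and higher in CD11c-negative NASH than in wildtype cells (0.42 ± 0.048, adjusted p = 1.24e-06). Psmg1 was higher in CD11c-positive NASH than in wildtype cells (0.31 ± 0.031, adjusted p = 2.63e-07).

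**Figure D5:**
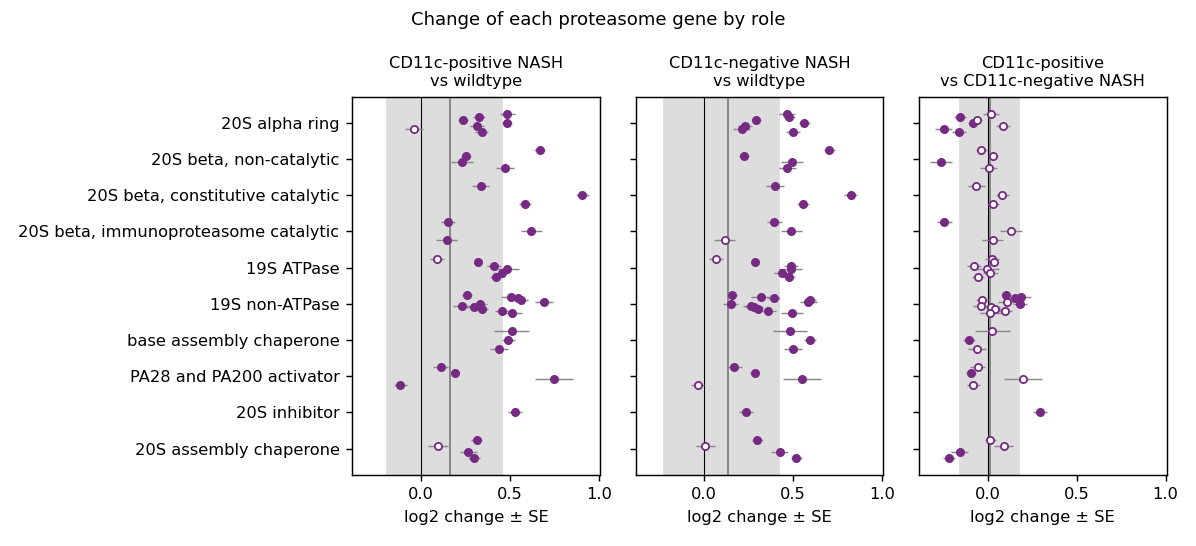
Log2 change ± SE of each of the 46 genes, grouped by role, in the 3 comparisons; filled points passed at an adjusted p under 0.05, the grey line is the median of all 13390 genes and the grey band holds their middle 50%. In CD11c-positive and CD11c-negative NASH cells against wildtype, 39 and 42 genes lie right of the grey line, and in CD11c-positive against CD11c-negative NASH cells 24, all with 75th percentile scaling.

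The genes that passed between the NASH groups were 4 Psmd genes and Psmf1 on the higher side, and 4 alpha ring genes, Psmb3, Psmb10, Psmd5, Psme2, Psmg3 and Psmg4 on the lower side. The count depended on the processing. With quantile normalization 11 genes were higher and 9 lower in CD11c-positive than in CD11c-negative NASH cells, where 32.7% and 21.9% of all genes were. With normexp background correction 11 were higher and 4 lower, against 30.2% and 25.5% of all genes. With the slide as a block 11 were higher and 16 lower, against 32.9% and 29.7%. Of the alpha ring genes, Psma4 lost its call without CD11c-positive NASH replicate 2 or 4, or CD11c-negative NASH replicate 2, 4 or 5 (-0.077 to -0.068).

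Genes for proteasome-bound and regulatory proteins outside the Psm names moved both ways. Of 12 tested, 9 were higher (51.4% of all genes) and 2 lower (26.3%) in CD11c-positive NASH than in wildtype cells (median 0.29). In CD11c-negative NASH cells 9 were higher (48.3%) and 3 lower (28.5%) than in wildtype cells (median 0.31). Between the NASH groups 6 were higher (29.9%) and 3 lower (23.2%) in CD11c-positive cells (median 0.057). With quantile normalization 5 were higher (40.7%) and 4 lower (34.1%) in CD11c-positive NASH than in wildtype cells. In CD11c-negative NASH cells 4 were then higher (36.1%) and 2 lower (37.6%). Ddi2, a protease that activates the transcription factor Nfe2l1, had levels of 1.72, 1.69, 1.72, 1.72 and 1.67 on the CD11c-positive NASH arrays, 1.55, 1.47, 1.5, 1.56 and 1.56 on the CD11c-negative NASH arrays, and 0.80, 0.80, 0.75, 0.92 and 0.80 on the wildtype arrays. The 3 groups did not overlap. Ddi2 was higher in CD11c-positive NASH (0.89 ± 0.032, adjusted p = 2.52e-12) and in CD11c-negative NASH (0.71 ± 0.032, adjusted p = 3.98e-11) than in wildtype cells. Ecpas, which binds the proteasome as an adaptor, was lower in CD11c-positive NASH than in wildtype cells (-0.62 ± 0.044, adjusted p = 7.67e-09) and than in CD11c-negative NASH cells (-0.25 ± 0.044, adjusted p = 0.000231). Sem1, a small subunit of the regulatory particle, was higher in CD11c-negative NASH than in wildtype cells (0.47 ± 0.028, adjusted p = 1.04e-09), a change of 0.0072 with quantile normalization that did not pass, and the deubiquitinase Uchl5 was higher in CD11c-positive than in CD11c-negative NASH cells (0.20 ± 0.036, adjusted p = 0.000338).

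The list of ubiquitin, its activating enzymes and shuttle factors held 14 genes. In CD11c-positive NASH cells 11 were higher (51.4% of all genes) and 0 lower (26.3%) than in wildtype cells (median 0.32). In CD11c-negative NASH cells 11 were higher (48.3%) and 0 lower (28.5%) than in wildtype cells (median 0.31). Between the NASH groups 3 were higher (29.9%) and 5 lower (23.2%) in CD11c-positive cells (median 0.026). Under quantile normalization the counts against wildtype were 8 higher (40.7%) and 2 lower (34.1%) in CD11c-positive NASH. In CD11c-negative NASH they were 7 higher (36.1%) and 4 lower (37.6%). The activating enzyme Uba6 was higher in CD11c-positive NASH (0.65 ± 0.051, adjusted p = 2.37e-08) and in CD11c-negative NASH (0.62 ± 0.051, adjusted p = 3.93e-08) than in wildtype cells. The shuttle factor Ubqln1 was higher in CD11c-positive NASH than in wildtype cells (0.57 ± 0.036, adjusted p = 2.02e-09), and Rps27a, which encodes ubiquitin fused to a ribosomal protein, in CD11c-negative NASH than in wildtype cells (0.62 ± 0.043, adjusted p = 5.49e-09). Ubqln2 was higher in CD11c-positive than in CD11c-negative NASH cells (0.38 ± 0.040, adjusted p = 1.74e-06) and the polyubiquitin gene Ubb lower (-0.29 ± 0.048, adjusted p = 0.000164), a difference of -0.034 with quantile normalization, which did not pass.

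Of 12 genes of MHC class I presentation, 9 were higher (51.4% of all genes) and 0 lower (26.3%) in CD11c-positive NASH than in wildtype cells (median 0.26). In CD11c-negative NASH cells 8 were higher (48.3%) and 2 lower (28.5%) than in wildtype cells (median 0.33). Between the NASH groups 5 were higher (29.9%) and 2 lower (23.2%) in CD11c-positive cells (median 0.11). Quantile normalization gave 6 higher (40.7%) and 4 lower (34.1%) in CD11c-positive NASH against wildtype. In CD11c-negative NASH it gave 4 higher (36.1%) and 5 lower (37.6%). Tap1, which lies between Psmb9 and Psmb8, had levels of 2.43, 2.4, 2.5, 2.5 and 2.48 on the CD11c-positive NASH arrays, 2.3, 2.28, 2.2, 2.4 and 2.4 on the CD11c-negative NASH arrays, and 1.81, 1.73, 1.81, 1.88 and 1.86 on the wildtype arrays. Every NASH array lay above the wildtype arrays, unlike for Psmb9. Tap1 was higher in CD11c-positive NASH (0.64 ± 0.041, adjusted p = 2.17e-09) and in CD11c-negative NASH (0.50 ± 0.041, adjusted p = 4.58e-08) than in wildtype cells, and so was Calr, a chaperone of the peptide loading complex (0.62 ± 0.049, adjusted p = 2.08e-08 and 0.51 ± 0.049, adjusted p = 2.03e-07, in the same order). Nlrc5, the transactivator of MHC class I genes, was higher in CD11c-positive than in CD11c-negative NASH cells (0.38 ± 0.025, adjusted p = 1.32e-08), and B2m, the light chain of MHC class I, lower (-0.32 ± 0.025, adjusted p = 1.07e-07).

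Genes of interferon-gamma signalling, the pathway known to induce the immunosubunits, moved both ways. Of 12, 5 were higher (51.4% of all genes) and 6 lower (26.3%) in CD11c-positive NASH than in wildtype cells (median -0.063). In CD11c-negative NASH cells 4 were higher (48.3%) and 7 lower (28.5%) than in wildtype cells (median -0.18). Between the NASH groups 3 were higher (29.9%) and 5 lower (23.2%) in CD11c-positive cells (median -0.016). Quantile normalization gave 3 higher (40.7%) and 8 lower (34.1%) in CD11c-positive NASH against wildtype. In CD11c-negative NASH it gave 2 higher (36.1%) and 8 lower (37.6%). Irf1, a transcription factor known to act on the immunosubunit genes, had levels of 5.94, 5.95, 5.97, 5.9 and 6.01 on the CD11c-positive NASH arrays, 6.31, 6.33, 6.24, 6.35 and 6.4 on the CD11c-negative NASH arrays, and 6.64, 6.59, 6.67, 6.64 and 6.62 on the wildtype arrays. The 3 groups did not overlap, with CD11c-positive NASH cells lowest. Irf1 was lower in CD11c-positive NASH (-0.68 ± 0.031, adjusted p = 4.31e-11) and in CD11c-negative NASH (-0.31 ± 0.031, adjusted p = 3.94e-07) than in wildtype cells, and lower in CD11c-positive than in CD11c-negative NASH cells (-0.37 ± 0.031, adjusted p = 1.79e-07).

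Other genes of that pathway were higher. The receptor chain Ifngr2 was higher in CD11c-negative NASH than in wildtype cells (0.67 ± 0.028, adjusted p = 2.16e-11), the transcription factor Irf8 in CD11c-positive NASH than in wildtype cells (0.72 ± 0.028, adjusted p = 5.96e-12), and the kinase Jak2 in CD11c-positive than in CD11c-negative NASH cells (0.45 ± 0.056, adjusted p = 9.8e-06). Ciita, the transactivator of MHC class II genes, was higher in CD11c-positive NASH (0.82 ± 0.20, adjusted p = 0.00194) and in CD11c-negative NASH (0.62 ± 0.20, adjusted p = 0.0120) than in wildtype cells. On slide 2 alone these changes were 0.68 and 0.70 and did not pass (adjusted p = 0.161 and 0.182). That slide held CD11c-positive NASH replicate 4, whose level of 1.27 lay below the wildtype arrays (1.38 to 1.64). The other CD11c-positive NASH arrays lay at 2.43 to 2.71, and the CD11c-negative NASH arrays at 2.03 to 2.19. The difference between the NASH groups did not pass with all arrays, but passed without that replicate (0.45, adjusted p = 4.84e-05).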

How the data were processed

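The deposited scanner files of 15 one-colour arrays give, per the file headers, spot intensities that Agilent Feature Extraction 10.7.3.1 (named in the submitters' processing notes) had background-subtracted. The authors' deposited value table, on a log2 scale, equals the log2 processed intensity minus each array's 75th percentile minus the wildtype median to within a median of 0.00146, and it served for that check and as an alternative. The labels' protocols state 0.1 ug of RNA and pools of 7 to 9 mice.

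From the processed intensities, outlier spots were dropped, spots of a probe were averaged, and log2 values were taken, and the 75th percentile over non-control probes was subtracted on each array. Probes well above background on at least 4 of 5 arrays of a group were kept, 28175 of 55681. Of 55681 probes, 26582 were named through RefSeq, and the brightest kept probe stood for its gene, so 13390 genes were tested. Precision is limited by having 5 arrays a group. The tests used limma 3.58.1 in R 4.3.3 over all 15 arrays, with Benjamini-Hochberg adjustment over all genes of a comparison. Within-array ratios had a 2-sided exact permutation test. Array slide (2 slides) was not in the main fit and was tried as a block. Slide 1 and slide 2 held 2 and 3 CD11c-positive NASH, 3 and 2 CD11c-negative NASH, and 3 and 2 wildtype arrays. The median proteasome gene, relative to the wildtype mean, was -0.046 to -0.019 on the wildtype arrays of slide 1. On those of slide 2 it was 0.051 and 0.041. Normexp background correction (offset 50), quantile normalization, probe averaging, other filters and leaving out each array were alternatives. The fits were also run on simulated arrays with known changes and independent noise, which checks the code and not these results.

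Named by rule were the catalytic subunits, Psme1 to Psme4 and Psmf1, for each other role and comparison the 2 genes with the largest change that passed (and the largest opposite one), for each pathway list and comparison its 2 largest, and Itgax, Adgre1 and Mc4r. Psmc1, Psmd12 and Psmg2 were named after their values were seen. The gene set and lists were chosen with earlier results of these data known.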

Additional observations from a re-analysis of the deposited data

Results flagged for a closer look

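Of 171 groups of 5 arrays checked, 5 held an array whose gap to its nearest neighbour took up more of the group's range than Dixon's critical value of 0.71, and chance gives about 1 in 20. Psmf1 had its lowest CD11c-positive NASH level in replicate 3, at 0.512, with the next at 0.569. The Psmb10 to Psmb7 ratio was lowest in CD11c-positive NASH replicate 5, at -0.561 relative to the wildtype mean, with the next at -0.416. Psma1 was lowest in CD11c-negative NASH replicate 3, at 5.365, with the next at 5.505. Calr was highest in CD11c-negative NASH replicate 5, at 5.877, with the next at 5.713. Ciita was lowest in CD11c-positive NASH replicate 4, at 1.267, with the next at 2.429.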

How the results depend on the processing

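The 9 ratio differences kept their direction under every alternative run, and those that passed kept their call wherever a p could be computed. Their size depended on the scaling. The Psmb8 to Psmb5 ratio in CD11c-negative NASH against wildtype, which had not passed, passed with quantile normalization (0.20), with the mean of the kept probes (0.098) and with the second Psmb5 probe (0.10, added after the data were seen), and leaving out each array gave 0.060 to 0.12. The Psmb9 to Psmb6 ratio between the NASH groups passed with quantile normalization (-0.097) and the slide as a block (-0.066), and leaving out each array gave -0.076 to -0.043, the first of these, without CD11c-positive NASH replicate 3, passing. The counts of genes depended on scaling. Quantile normalization gave 26 higher and 11 lower in CD11c-positive NASH against wildtype, 24 and 13 in CD11c-negative NASH against wildtype, and 11 higher in CD11c-positive against CD11c-negative NASH. Of the genes named in the text it turned Adgre1 (-0.057), B2m (-0.049), Psma6 (-0.14), Psmb10 (-0.080), Psmb5 (-0.067), Psmb9 (-0.27), Psmc1 (-0.38), Psmd2 (-0.16), Psme1 (-0.28), Psme2 (-0.19), Psmg2 (-0.15) and Ubb (-0.0029) in CD11c-negative NASH against wildtype. In CD11c-positive NASH against wildtype it turned B2m (-0.12), Nlrc5 (-0.073), Psma7 (-0.038), Psmb10 (-0.23), Psmb3 (-0.13), Psmb5 (-0.064), Psmb9 (-0.20), Psmc1 (-0.29), Psme1 (-0.27), Psme2 (-0.16) and Sem1 (-0.081), and between the NASH groups Psme2 (0.031) and Rps27a (0.014). Of the other proteasome genes it turned Psma3 (-0.15), Psma5 (-0.092), Psmc2 (-0.079), Psmd1 (-0.16), Psmd3 (-0.11) and Psmd4 (-0.11) in CD11c-negative NASH, and Psma2 (-0.067), Psma3 (-0.15), Psmd1 (-0.039), Psmd3 (-0.098) and Psmd4 (-0.051) in CD11c-positive NASH against wildtype. Scaling to the median, added after the data were seen, gave 2, 1 and 21 lower genes in CD11c-positive NASH against wildtype, CD11c-negative NASH against wildtype and CD11c-positive against CD11c-negative NASH, and turned Psmg1 between the NASH groups (-0.043) and B2m (-0.11) and Psme1 (-0.021) in CD11c-positive NASH against wildtype. Normexp gave 11 higher and 4 lower between the NASH groups and turned Psme2 there (0.018). The mean of the kept probes gave 1 lower gene in CD11c-negative NASH against wildtype. With the slide as a block 11 were higher and 16 lower between the NASH groups and 2 lower in CD11c-positive NASH against wildtype, where slide 1 or slide 2 alone gave 0. Leaving out each array gave 40 to 43 higher in CD11c-positive NASH and 42 to 43 in CD11c-negative NASH against wildtype, and between the NASH groups 5 to 8 higher, the most without CD11c-negative NASH replicate 4 or 5, and 8 to 12 lower. The cause of these changes was not tested. Probes dim in all groups were not measured well.

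Replicate numbers are shared across groups. Deviations of same-numbered arrays correlated above 0.1 for 3, 4 and 4 of 5 numbers. The comparisons were CD11c-negative NASH against wildtype, CD11c-positive against CD11c-negative NASH and CD11c-positive NASH against wildtype. In that order, 2, 3 and 3 arrays correlated best with their own number. CD11c-positive NASH replicate 3 gave -0.20 and -0.17, and it alone lay on another slide than its namesakes. Same-numbered arrays thus mostly share a slide, so this check cannot decide whether they are paired. With the replicate block 8 genes were higher and 11 lower between the NASH groups, 44 and 1 in CD11c-positive NASH against wildtype, and 44 and 0 in CD11c-negative NASH against wildtype. With the replicate block and the slide together, 9 were higher and 16 lower between the NASH groups and 2 lower in CD11c-positive NASH against wildtype.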
